A study of Bos taurus with 20 samples.

Results

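CXC chemokines are small secreted proteins that guide leukocytes, and 6 of them that are not the interferon-driven ligands of CXCR3 were followed here in E. coli mastitis: CXCL8, CXCL2, CXCL3, CXCL5, CXCL12 and CXCL16. Members were chosen by symbol, as every probe set that the platform annotation assigns to 1 of the 6 genes, which gave 7 of the 24128 probe sets of the Affymetrix Bovine Genome Array, for 6 of its 9156 named genes. The 6 genes were named with earlier results of these data known, so counts of called members beside a background are descriptions and no test of the group. CXCL8, CXCL2, CXCL3, CXCL5 and CXCL12 had 1 probe set each. CXCL16 had a brighter probe set, called leading here, and a dimmer one, called the other. In the RefSeq gene order of the cow, CXCL8, CXCL5, CXCL2 and CXCL3 lie in 1 cluster on chromosome 6, whereas CXCL16 lies on chromosome 19 and CXCL12 on chromosome 28.

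CXCL8, CXCL2, CXCL3 and CXCL5 carry a glutamate-leucine-arginine (ELR) motif and attract neutrophils through CXCR1 and CXCR2, and in the udder their release by epithelial cells and macrophages is an early step of the answer to coliform bacteria. Transcription of the ELR chemokines is driven by NF-kB downstream of Toll-like receptors, IL-1 and TNF, and prednisolone, a glucocorticoid, is known to restrain this pathway. CXCL12 is made by stromal cells and retains leukocytes that carry CXCR4, and CXCL16 is a membrane-bound chemokine and scavenger receptor whose shed form attracts CXCR6 cells.

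Mammary tissue of 5 mid-lactating Holstein Friesian cows was hybridised to 20 arrays, 1 for each of the 4 glands of a cow, so that glands of 1 cow share an animal and the cow is the replicate. One gland of each cow was not challenged (NC). The 3 others received 100 CFU of E. coli by the teat canal and were left untreated (CNT), infused with 300 mg cefapirin, a cephalosporin (CF), or infused with the same dose of cefapirin together with prednisolone at 20 mg (CFPD). Tissue of cows 4 and 5 was taken at 24 h, after infusions at 4 and 12 h, and tissue of cows 1, 2 and 3 at 48 h, after infusions at 4, 12, 24 and 36 h. NC was the right front gland and CNT the left front gland in 5 of 5 cows, so gland position and challenge without treatment cannot be told apart, and no group had an untreated rear gland.

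Values are log2 signals after RMA (robust multiarray average), in which a difference of 1 is a factor of 2 in signal. The arrays had similar medians, between 7.12 and 7.31. All 7 probe sets entered the tests at both times, although CXCL5 was above the array median on 6 of 20 arrays alone, those of CNT and the CFPD-labelled gland of cow 5. At 48 h CXCL5 therefore entered the tests only through the group where it is high, and its calls carry that limit. A difference was called where limma gave an adjusted p under 0.05 and the log2 difference reached 1 either way. In cows 2 and 5 it is uncertain which rear gland had which treatment, because fold changes tabulated by the study lie nearer to the deposited arrays once the CF and CFPD labels are exchanged. Apart from that reason, the CFPD-labelled gland of cow 5 differs from the other CFPD glands in its CXCL8, CXCL2 and CXCL5 signals. The cause of this was not tested, and it is not used to judge the labels. In both cows the CFPD label is on the left rear gland, and in the other 3 it is on the right rear gland. Results that rest on these labels for CXCL8, CXCL2 and CXCL5 are given below both ways, and the mean of both treated glands, called treated, does not depend on them apart from the shared variance.

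Among the ELR chemokines, CXCL8, CXCL2 and CXCL5 were far higher in the challenged untreated gland than in the unchallenged gland of the same cow in 5 of 5 cows, by 23.0-fold, 24.1-fold and 11.6-fold on average. CXCL8, which encodes interleukin 8, measured 7.23 and 5.71 in the NC glands of cows 4 and 5 at 24 h, and 6.30, 6.34 and 5.28 in those of cows 1, 2 and 3 at 48 h. The CNT glands of the same cows measured 12.01 and 11.39 at 24 h and 11.21, 8.67 and 10.19 at 48 h. No CNT gland overlapped with an NC gland, and cow 2 had the lowest CXCL8 of the 5 CNT glands. Here and below, the share of all probe sets whose groups lie apart in the same way is not given, so such separations only describe the values.

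CXCL2, a close relative of the GRO chemokines, measured 5.54 and 5.60 in NC at 24 h and 5.00, 6.55 and 4.84 at 48 h. In CNT glands its signal was 11.12 and 10.57 for 24 h and 10.59, 8.59 and 9.63 for 48 h. The smallest distance between the CNT and NC gland of 1 cow was again that of cow 2, at 2.03, while the other cows lay between 4.79 and 5.59. CXCL5, known in human and mouse as an epithelial neutrophil attractant, measured 6.43 and 5.51 in NC at 24 h and 5.30, 6.82 and 4.09 at 48 h. In CNT it measured 9.44 and 9.45 at 24 h and 8.93, 9.30 and 8.72 at 48 h. CXCL5 was the most even of these genes across CNT glands, with an SD of 0.01 (n = 2) at 24 h and 0.30 (n = 3) at 48 h, against 0.43 and 1.28 for CXCL8.

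**Figure D1:**
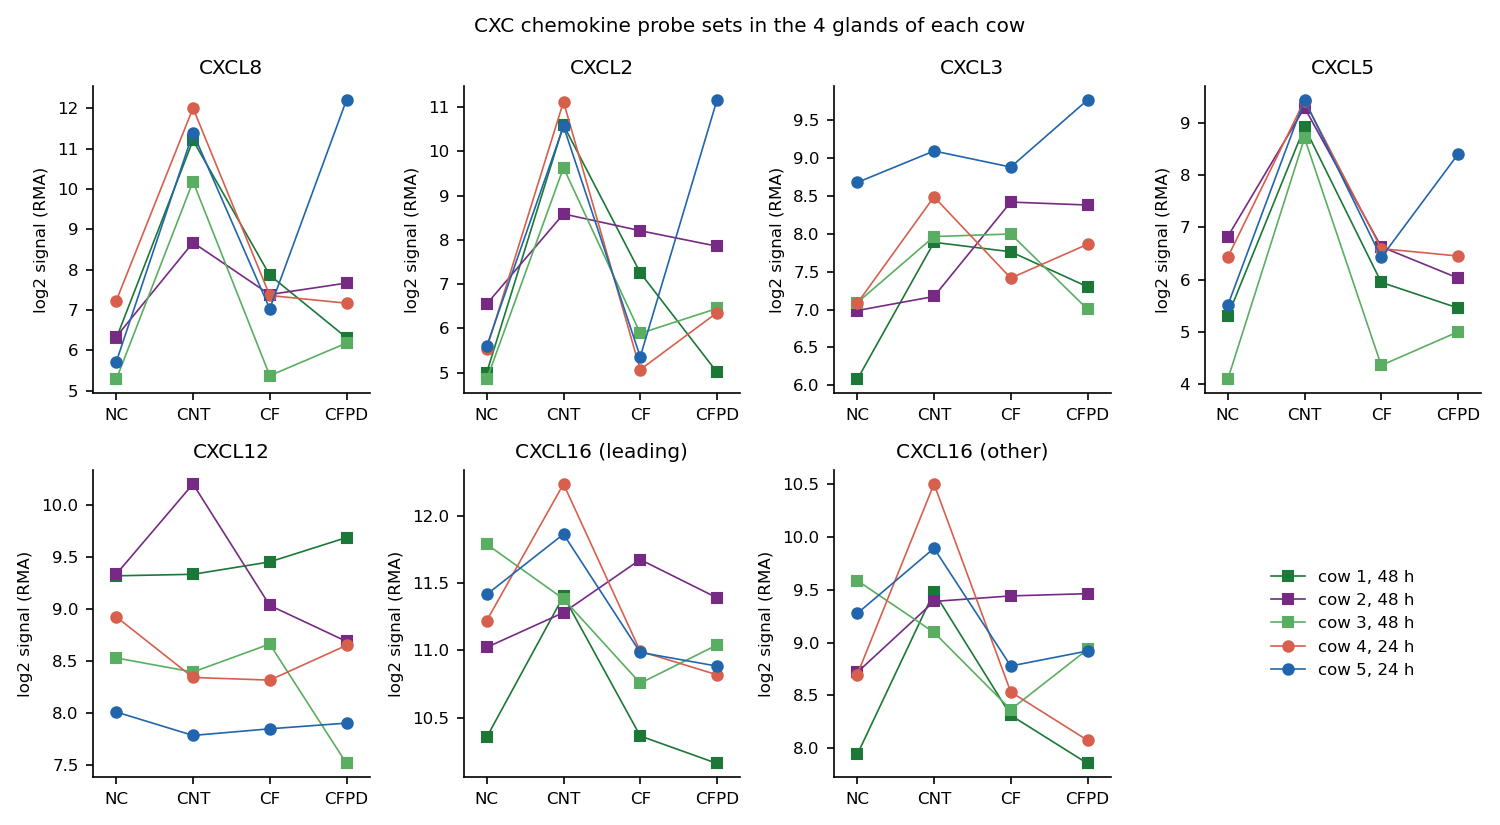
Log2 signal (vertical axis, a scale of its own in each panel) of each CXC chemokine probe set in the NC, CNT, CF and CFPD gland, by label; 1 line joins the 4 glands of a cow, with circles for 24 h and squares for 48 h. CXCL8, CXCL2 and CXCL5 are higher in CNT than in NC in all 5 cows, and the CFPD-labelled gland of cow 5 is high again, at 12.21, 11.16 and 8.40.

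The response to challenge was tested at each time and within cows. At 24 h, 1 of 7 probe sets was called higher in CNT than in NC, against a background of 1.62% of the 13004 probe sets tested. This was CXCL5, with a log2 fold change of 3.47 (SE 0.59, adjusted p = 0.0364). CXCL8 and CXCL2 had larger differences, 5.23 (SE 1.42, adjusted p = 0.101) and 5.27 (SE 1.30, adjusted p = 0.0811), and were not called. With cow as a block they were called, with adjusted p = 0.0479 for CXCL8 and 0.0273 for CXCL2. The call for CXCL5 at 24 h was lost when any 1 of the 4 CNT or NC arrays, or either cow, was left out, with log2 fold changes of 3.01 to 3.94. The median difference of the 7 probe sets was 1.21 at 24 h, beside -0.01 over all probe sets tested.

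At 48 h, 3 of 7 probe sets were called higher, against a background of 2.15% of 13000. CXCL8 rose by 4.05 (SE 0.73, adjusted p = 0.0136), CXCL2 by 4.14 (SE 0.80, adjusted p = 0.0187) and CXCL5 by 3.58 (SE 0.66, adjusted p = 0.0154). CXCL5 was tested at 48 h through its CNT arrays alone, so its place in this count was open only because it is high there. The median of the 7 probe sets was 0.96, beside 0.13 over all probe sets tested. Without the NC array of cow 3, without cow 1 or without cow 3, none of CXCL8, CXCL2 and CXCL5 was called, and without the NC array of cow 1 only CXCL8 was. CXCL2 was also lost without the CNT array of cow 1 (3.64, adjusted p = 0.0591), and CXCL5 without that of cow 2 (3.42, adjusted p = 0.0508). In the fit of 5 cows with cow as a block, the same 3 probe sets were called, against a background of 3.85% of 13486. There CXCL8 rose by 4.52 (SE 0.79, adjusted p = 0.000631), CXCL2 by 4.59 (SE 0.85, adjusted p = 0.00102) and CXCL5 by 3.54 (SE 0.38, adjusted p = 1.68e-05), and each was called whichever cow was left out. No difference between the challenge responses at 48 h and 24 h was called for any member, with 0 of 7 called in limma against a background of 0% of 13486, and 0 at an unadjusted p under 0.05. The smallest adjusted p among the members, 0.878, was that of the other CXCL16 probe set. That comparison sets 2 cows against 3, and its 95% interval for CXCL8 ran from -4.52 to 2.17.

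**Figure D2:**
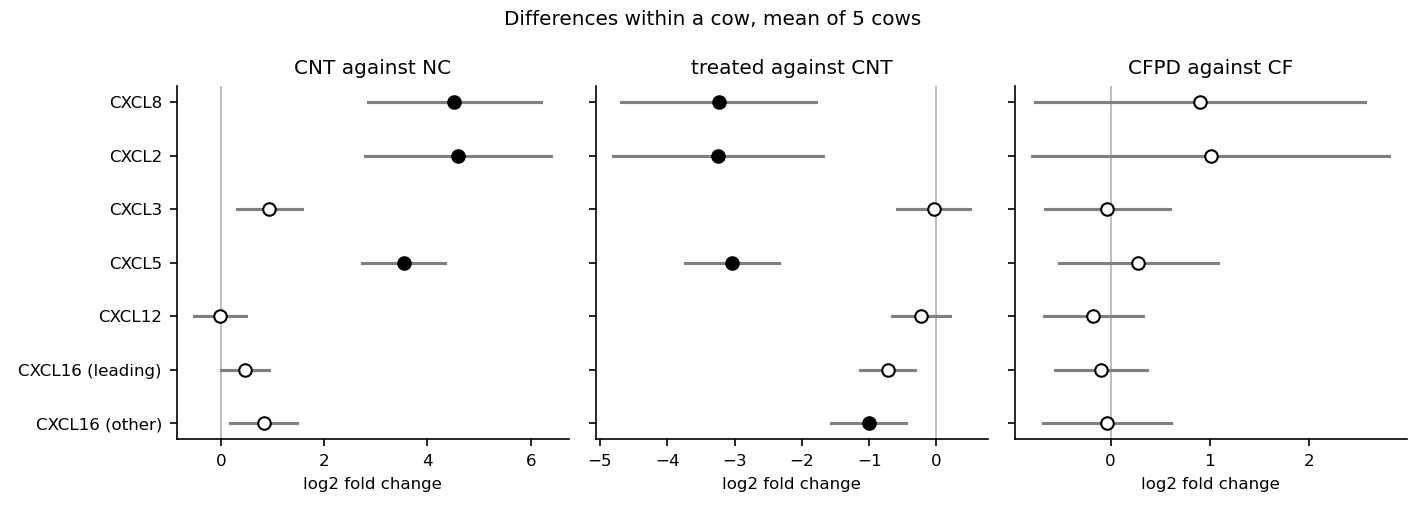
Log2 fold change (horizontal axis) of each CXC chemokine probe set within cows, from limma over 5 cows with cow as a block; bars are 95% confidence intervals and filled points were called. CXCL8, CXCL2 and CXCL5 rose by 4.52, 4.59 and 3.54 with challenge and changed by -3.24, -3.24 and -3.04 with treatment, and no point of CFPD against CF, drawn by label, was called.

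Glands given either treatment had lower CXCL8, CXCL2 and CXCL5 signals than the untreated gland, except for CXCL8 and CXCL2 in 1 gland of cow 5. The difference for CXCL2 was small in cow 2. In CF glands CXCL8 measured 7.36 and 7.03 at 24 h and 7.87, 7.39 and 5.37 at 48 h, all below the lowest CNT value of 8.67. In CFPD glands it measured 7.17 and 12.21 in the cows of 24 h and 6.32, 7.67 and 6.18 in those of 48 h. The value of 12.21, in cow 5, was above that of every CNT gland, whereas the other 4 CFPD values lay below all of them.

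CXCL2 followed the same order, with 5.07 and 5.36 in CF at 24 h and 7.26, 8.21 and 5.89 at 48 h. In CFPD it measured 6.35 and 11.16 at 24 h, and then 5.01, 7.86 and 6.45 at 48 h. Cow 2 again stood apart, since its CF and CFPD glands stayed within 0.73 of its CNT gland, which itself was the lowest of the CNT glands. CXCL5 measured 6.59 and 6.43 in CF at 24 h and 5.95, 6.63 and 4.35 at 48 h. In CFPD it measured 6.45 and 8.40 at 24 h and 5.46, 6.03 and 5.00 at 48 h. For CXCL5 all 10 treated glands lay below all 5 CNT glands.

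Over 5 cows, 4 of 7 probe sets were called lower in treated than in CNT glands, against a background of 3.35%. CXCL8 changed by -3.24 (SE 0.68, adjusted p = 0.00196), CXCL2 by -3.24 (SE 0.74, adjusted p = 0.00327) and CXCL5 by -3.04 (SE 0.33, adjusted p = 9.12e-06), with the same sign in 5 of 5 cows. The fourth was the other CXCL16 probe set, described below. Leaving out the CFPD-labelled gland of cow 5, a choice made after its values were seen, gave differences of -3.76, -3.73 and -3.28 for CXCL8, CXCL2 and CXCL5, which were still called.

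By time, 3 of 7 probe sets were called lower in treated than in CNT glands at 24 h (background 2.51%): CXCL5, by -2.47 (SE 0.51, adjusted p = 0.0415), and both CXCL16 probe sets. CXCL8 at 24 h differed by -3.26 (SE 1.23, adjusted p = 0.164) and CXCL2 by -3.86 (SE 1.12, adjusted p = 0.0920), and with cow as a block CXCL2 was called (adjusted p = 0.0367). At 48 h the 3 called lower (background 2.17%) were CXCL8, by -3.22 (SE 0.63, adjusted p = 0.0172), CXCL2, by -2.83 (SE 0.69, adjusted p = 0.0402) and CXCL5, by -3.41 (SE 0.57, adjusted p = 0.00780). For CXCL5 the limit of entry through CNT arrays alone holds here too. Of the 12 fits at 48 h that left out 1 CNT, CF or CFPD array or 1 cow, CXCL2 was called in 3. CXCL8 was lost without the CNT array of cow 1, without cow 1 or without cow 3, and CXCL5 was lost without cow 1. CXCL5 at 24 h was called in 2 of 8 such fits, those without a CFPD array. For the treatment effect, no difference between 48 h and 24 h was called in limma for any member (0 of 7, background 0.0593%, 0 at an unadjusted p under 0.05).

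Taken by label, CF against CNT gave 1 of 7 called lower at 24 h (background 1.59%), the leading CXCL16 probe set, and 2 of 7 at 48 h (background 1.5%), CXCL8 and CXCL5. CXCL8 fell by 3.15 at 48 h with an adjusted p of 0.0498, which became 0.0501 with the labels of cows 2 and 5 exchanged. CXCL5 fell by 3.34 (SE 0.66, adjusted p = 0.0268), or changed by -3.54 (adjusted p = 0.0197) with the labels exchanged. CFPD against CNT gave 1 of 7 called lower at 24 h (background 1.04%), again the leading CXCL16 probe set, and 1 of 7 at 48 h (background 1.05%), CXCL5, which fell by 3.49 (SE 0.66, adjusted p = 0.0258). Each of these calls by label at 48 h was unstable, being kept in 1 of 9 fits that left out an array or a cow for CXCL8 in CF, in 3 of 9 for CXCL5 in CF and in 2 of 9 for CXCL5 in CFPD. With the labels exchanged, CFPD against CNT called CXCL5 and both CXCL16 probe sets at 24 h, and CXCL8 and CXCL5 at 48 h. With cow as a block and the labels as deposited, CXCL8 (adjusted p = 0.0162) and CXCL2 (adjusted p = 0.0317) were called too in CFPD against CNT at 48 h, and CXCL2 (adjusted p = 0.0231) and CXCL5 (adjusted p = 0.0212) in CF against CNT at 24 h.

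What was left of the response in treated glands was compared with the unchallenged gland. None of the 7 probe sets was called by limma in CF or CFPD against NC at either time, and the background in these comparisons was also 0%. At an unadjusted p under 0.05 there were 3 in CFPD at 24 h (CXCL2 3.19, CXCL5 1.46 and the leading CXCL16 -0.47), 1 each in CF and CFPD at 48 h (CXCL3), and 0 in CF at 24 h. The share of all probe sets at that unadjusted threshold is not given here, so nothing is concluded from these counts. The CXCL2 and CXCL5 values at 24 h rest on the CFPD-labelled gland of cow 5. The leading CXCL16 differed from NC by -0.40 in cow 4 and by -0.53 in cow 5. With the labels exchanged, CFPD against NC at 24 h was 0.63 for CXCL8, 0.28 for CXCL2 and 0.47 for CXCL5, and CF against NC was 3.31, 2.54 and 1.53, in place of 0.72 for CXCL8, -0.36 for CXCL2 and 0.54 for CXCL5, without a call. At 48 h CXCL8 differed from NC by 0.90 (SE 0.73) in CF and 0.75 (SE 0.73) in CFPD, and CXCL2 by 1.65 (SE 0.80) in CF, with the same sign in 3 of 3 cows, and by 0.97 (SE 0.80) in CFPD. CXCL5 at 48 h differed from NC by 0.24 (SE 0.66) in CF and by 0.09 (SE 0.66) in CFPD. With the labels exchanged, the 48 h differences from NC were 1.0 (CF) and 0.66 (CFPD) for CXCL8, 1.53 and 1.09 for CXCL2, and 0.04 and 0.29 for CXCL5. The 95% interval for CXCL2 in CF, as labelled, ran from -0.09 to 3.39, so a remaining difference of several-fold was not excluded with 3 cows.

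CFPD against CF, the comparison that bears on prednisolone, gave no call by limma among the 7 probe sets at 24 h, at 48 h or over 5 cows (background 0% in each). At an unadjusted p under 0.05 there was 1 at 24 h, CXCL2 (3.55, or -2.26 with the labels of cows 2 and 5 exchanged), and 0 at 48 h and over 5 cows. Here too the share of all probe sets at that threshold is not given, and nothing is concluded from the count. Over 5 cows the difference was 0.91 (95% interval -0.76 to 2.57) for CXCL8, 1.01 (-0.79 to 2.81) for CXCL2 and 0.28 (-0.52 to 1.08) for CXCL5. The positive means by label rest on cow 5, where CFPD minus CF was 5.18 for CXCL8, 5.81 for CXCL2 and 1.98 for CXCL5. In the other cows the difference went both ways, from -1.55 to 0.81, from -2.25 to 1.29 and from -0.60 to 0.64. With the labels of cows 2 and 5 exchanged, the means became -1.28 (-2.87 to 0.32), -1.17 (-2.94 to 0.60) and -0.27 (-1.08 to 0.53). The direction for the 3 ELR chemokines therefore depends on the labels and on cow 5. At 48 h CXCL8 differed by -0.15 (-1.75 to 1.44), CXCL2 by -0.68 (-2.42 to 1.06) and CXCL5 by -0.15 (-1.60 to 1.30), and with the labels exchanged CXCL8 differed by -0.34, CXCL2 by -0.44 and CXCL5 by 0.25.

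The gland of cow 5 labelled CFPD held CXCL8 and CXCL2 above the level of the CNT gland of the same cow, at 12.21 against 11.39 and at 11.16 against 10.57, and CXCL5 below it, at 8.40 against 9.45. The median of the neutrophil markers lay near the NC level of the cow, and CXCR1 lay 0.72 above NC (4.71 in CNT). IL6 lay 3.09 above NC (2.65 in CNT), the NF-kB inhibitor NFKBIA 2.47 (1.78 in CNT) and the adhesion molecule ICAM1 2.58 (2.21 in CNT). These 3 genes were named after their values were seen. TNF measured 8.28 in this gland and 6.53 in CNT. The mean of CXCL8, CXCL2 and CXCL5 was 10.59, against 10.47 in the CNT, 6.27 in the CF and 5.61 in the NC gland. The median of 10 neutrophil markers was 6.66 in this gland, against 8.60 in CNT, 6.64 in CF and 6.60 in NC. That median includes ITGAM, MPO and PGLYRP1, which measured 3.89, 6.08 and 6.18 in CNT of this cow, against 4.12, 6.51 and 6.11 in NC. S100A8, a calcium-binding protein abundant in neutrophils, measured 9.26 there, 12.57 in CNT, 8.70 in CF and 8.12 in NC. TREM1 was below its NC level, at 5.87 against 6.23. CXCR1, the neutrophil receptor of CXCL8, measured 5.72 there, 9.72 in CNT, 5.30 in CF and 5.01 in NC. Over all probe sets tested at 24 h, 1 minus the correlation with this array was smallest for the CF array of the same cow (0.0153), then NC (0.0246) and then CNT (0.0509). If the labels of cow 5 are exchanged, this is a gland treated with cefapirin alone.

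**Figure D3:**
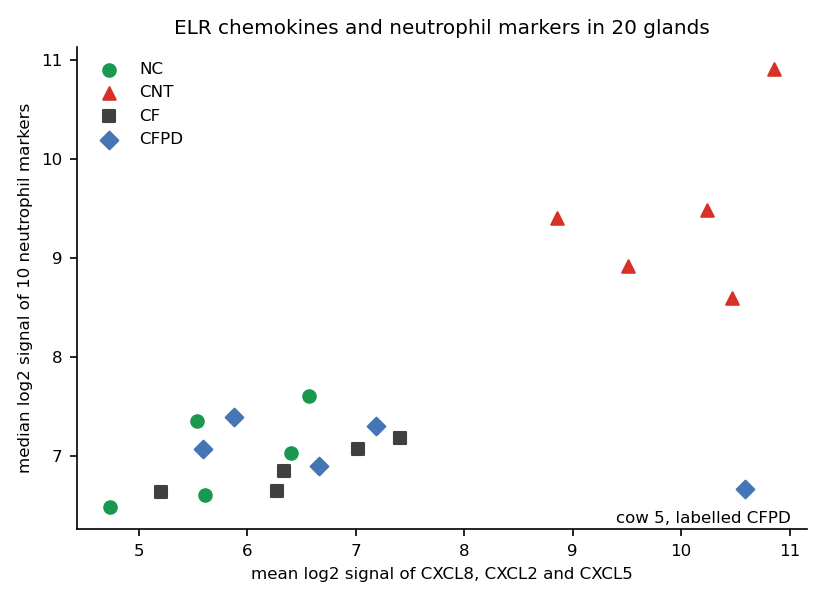
Median log2 signal of 10 neutrophil markers (vertical axis) against the mean log2 signal of CXCL8, CXCL2 and CXCL5 (horizontal axis) in the 20 glands, by label. The 5 CNT glands are high on both axes, with neutrophil medians of 8.60 to 10.91, and the CFPD-labelled gland of cow 5 lies at 10.59 and 6.66.

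Between the rear glands of cow 5, the CFPD-labelled minus the CF-labelled, CXCL2 had the largest difference of all 13004 probe sets, 5.81, and CXCL8 the second largest, 5.18. CXCL5 ranked 25 with 1.98 and CXCL3 ranked 115 with 0.89, while the differences of CXCL12 and both CXCL16 probe sets lay between -0.10 and 0.14. Only 23 probe sets differed by more than 2 upwards and 0 by more than 2 downwards. Other genes near the top, named after their values were seen, were 3 probe sets of GRO1 (3.22 to 4.62), the growth-regulated chemokine next to CXCL3 in the cluster, CCL20 (3.10), a chemokine for CCR6 cells, IL6 (2.70) and NFKBIA (2.39). In cow 4, the other cow of this time, CXCL8 differed by -0.19 and CXCL5 by -0.14 between the same labels, and CXCL2 by 1.29. A pair of arrays allows no test of these differences.

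**Figure D4:**
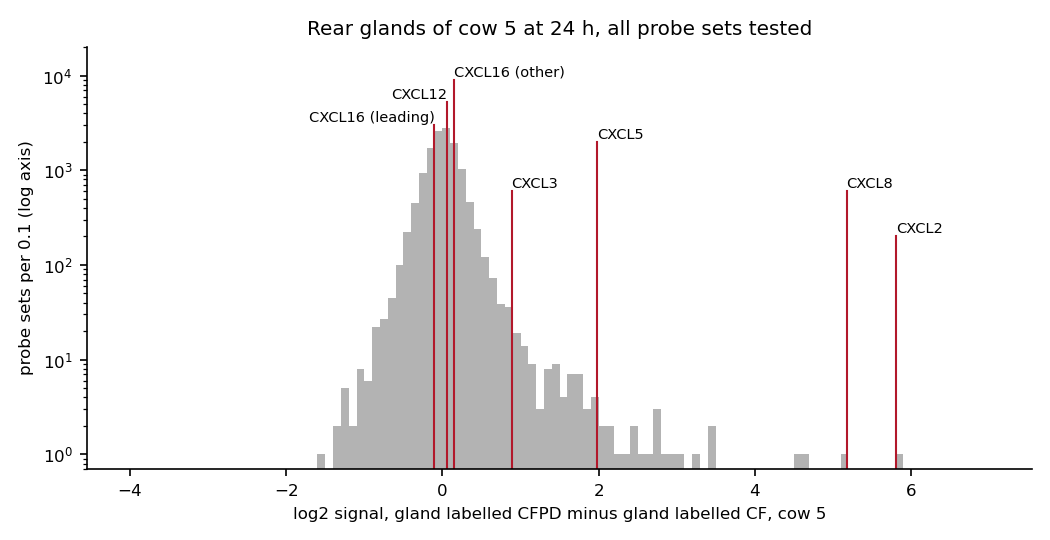
Number of probe sets (vertical log axis, bins of 0.1) by the log2 difference between the rear glands of cow 5, labelled CFPD minus labelled CF (horizontal axis), at 24 h; vertical lines mark the CXC chemokine probe sets, with heights set for legibility. CXCL2 at 5.81 and CXCL8 at 5.18 are the most distant of 13004 probe sets, and CXCL12 and CXCL16 lie near 0.

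CXCL3, the remaining ELR chemokine, had no call in any comparison. It measured 7.08 and 8.68 in NC at 24 h and 6.08, 6.99 and 7.09 at 48 h, and in CNT 8.49 and 9.09 at 24 h and 7.89, 7.17 and 7.96 at 48 h. CNT was above NC in 5 of 5 cows, by 0.94 on average (SE 0.30, adjusted p = 0.0250), which was under the fold needed for a call. Without cow 2 the difference was 1.13 and without cow 5 it was 1.07, and both were called.

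In treated glands CXCL3 lay on either side of its CNT level. CF glands measured 7.42 and 8.88 at 24 h and 7.76, 8.42 and 8.00 at 48 h, and CFPD glands 7.86 and 9.77 at 24 h and 7.30, 8.38 and 7.0 at 48 h. Treated glands differed from CNT by a mean of -0.04 (95% interval -0.59 to 0.50) over 5 cows that went both ways, with 1.25 in CF and 1.21 in CFPD in cow 2, -1.07 in CF in cow 4 and -0.96 in CFPD in cow 3, and at 48 h CF lay 1.34 (SE 0.38) above NC in 3 of 3 cows without a call. GRO chemokines have similar sequences, and whether the probes of CXCL2, CXCL3 and GRO1 respond to transcripts of each other was not tested.

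CXCL16 was the only member outside the ELR group with calls. Its leading probe set measured 11.22 and 11.42 in NC and 12.24 and 11.86 in CNT at 24 h, and 10.36, 11.02 and 11.79 in NC and 11.40, 11.28 and 11.38 in CNT at 48 h. The groups were apart at 24 h, with only 2 arrays each, and overlapped at 48 h, where the NC gland of cow 3 was the highest of the 6. CNT against NC was not called at 24 h (0.73, SE 0.18, adjusted p = 0.0768) or at 48 h (0.30, SE 0.42, adjusted p = 0.691). The other probe set differed by 1.21 (SE 0.35, adjusted p = 0.115) and 0.57 (SE 0.47, adjusted p = 0.477), and with cow as a block its 24 h difference was called (adjusted p = 0.0459).

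After treatment at 24 h the leading CXCL16 probe set measured 10.99 and 10.98 in CF and 10.82 and 10.88 in CFPD, below both NC and both CNT glands. It changed by -1.06 in CF (SE 0.18, adjusted p = 0.0350) and by -1.20 in CFPD (SE 0.18, adjusted p = 0.0333) against CNT, and with the labels exchanged by -1.11 and -1.15, both called. For treated against CNT at 24 h the leading probe set changed by -1.13 (SE 0.15, adjusted p = 0.0147) and the other by -1.62 (SE 0.30, adjusted p = 0.0324), and neither was called without the CNT array of cow 4, without the CF array of cow 5 or without either cow. The other probe set was also lost without the CF or the CFPD array of cow 4. In a single fit of all 20 arrays, no CXCL16 call at 24 h was kept. At 48 h treated glands spanned 10.16 to 11.67 for the leading probe set, and the difference was -0.46 (SE 0.36, adjusted p = 0.441). Over 5 cows the other probe set changed by -1.0 (SE 0.26, adjusted p = 0.00759), at the edge of the fold needed, and the leading one by -0.73 (SE 0.19, adjusted p = 0.00788), short of it. The call of the other probe set over 5 cows was lost without cow 1, 4 or 5, with log2 fold changes of -0.91, -0.71 and -0.99, and also after quantile normalization (-0.84) or median centring (-0.96).

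The other CXCL16 probe set spanned 7.94 to 9.59 in NC, 9.10 to 10.50 in CNT, 8.31 to 9.44 in CF and 7.86 to 9.46 in CFPD, and its changes from gland to gland followed those of the leading one (r = 0.96 over 20 arrays after each cow mean was taken off). Over 5 cows CNT exceeded NC by 0.83 (SE 0.30, adjusted p = 0.0474) on it, below the fold needed, in 4 of 5 cows, and without cow 3 this was 1.16 and called. The receptor of CXCL16, CXCR6 of T and natural killer cells, differed by 0.20 (SE 0.13, adjusted p = 0.256) in CNT against NC over 5 cows and by -0.69 (SE 0.11, adjusted p = 0.000339) in treated against CNT, under the fold needed.

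CXCL12, the stromal chemokine, had no common order of the groups across cows. It measured 8.92 and 8.01 in NC and 8.34 and 7.78 in CNT at 24 h, and 9.32, 9.33 and 8.53 in NC and 9.33, 10.20 and 8.39 in CNT at 48 h. CF glands measured 8.31 and 7.84 at 24 h and 9.45, 9.03 and 8.66 at 48 h, and CFPD glands 8.65 and 7.90 at 24 h and 9.68, 8.68 and 7.51 at 48 h. Groups overlapped at both times, the 4 glands of cow 5 lay between 7.78 and 8.01 and those of cow 1 between 9.32 and 9.68, and the highest value was that of the CNT gland of cow 2. CXCL12 had no call in any comparison, with a difference of -0.01 (95% interval -0.51 to 0.49) for CNT against NC and of -0.24 (-0.67 to 0.20) for treated against CNT over 5 cows. Its receptor CXCR4, carried by most leukocytes, rose by 1.53 (SE 0.24, adjusted p = 0.000317) with challenge and fell by 1.75 (SE 0.21, adjusted p = 2.18e-05) with treatment, while ACKR3, a scavenger of CXCL12, differed by -0.50 (SE 0.14, adjusted p = 0.0112) with challenge, under the fold needed.

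CXCR1, through which CXCL8 acts on neutrophils, had the largest change among the receptors. It measured 5.58 and 5.01 in NC and 12.56 and 9.72 in CNT at 24 h, and 5.47, 6.08 and 5.54 in NC and 10.59, 8.51 and 9.31 in CNT at 48 h. The groups did not overlap, and cow 2 again had the lowest CNT value. Over 5 cows CXCR1 rose by 4.60 (SE 0.51, adjusted p = 2.12e-05) with challenge and fell by 4.26 (SE 0.44, adjusted p = 6.38e-06) with treatment, and in treated glands it spanned 5.30 to 6.62. CXCR1 was above the array median on CNT arrays alone. It therefore entered the tests only through the group where it is high, and its calls carry that limit. ACKR1, which takes up ELR chemokines on endothelium, was called higher at 24 h (1.52, SE 0.28, adjusted p = 0.0419) and differed by 0.97 over 5 cows. In all, 2 of the 5 CXC receptors tested, CXCR1 with that limit and CXCR4, were called higher in CNT than in NC over 5 cows (background 3.85%). No probe set was matched to the sixth, CXCR2.

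The neutrophil markers that were tested changed in the same direction as CXCL8, CXCL2 and CXCL5, while CXCL3 had no call. Of 10 neutrophil markers on the array, 7 passed the filter on low values, and these were called higher in CNT than in NC over 5 cows (background 3.85%) and lower in treated than in CNT glands (background 3.35%). Markers that are dim elsewhere could pass that filter through their CNT arrays, and ITGAM, MPO and PGLYRP1 did not pass it. In cow 5 MPO measured 6.51 in NC and 6.08 in CNT. The median level of the 10 neutrophil markers was 6.48 to 7.60 in NC, 8.60 to 10.91 in CNT, 6.63 to 7.18 in CF and 6.66 to 7.39 in CFPD glands, so that CNT did not overlap with the other groups. Of 6 macrophage markers tested, CD68 (3.09) and CSF1R (1.07) were called higher and MSR1 (-1.11) lower in CNT than in NC over 5 cows. No marker of secretory epithelium (7 tested), fibroblasts (6) or endothelium (4) was called in that comparison. The median of 8 secretory epithelium markers was nevertheless lower in CNT than in NC in 5 of 5 cows, at 13.96 to 14.41 against 14.61 to 14.89 without overlap, and BTN1A1, of the milk fat globule membrane, was called lower at 24 h (-1.28, SE 0.21, adjusted p = 0.0318). The part of these cells in the chemokine signals was not tested, and in bulk tissue more cells of a type and more RNA per cell cannot be told apart. The CFPD-labelled gland of cow 5 is the exception measured here, with a mean of 10.59 for CXCL8, CXCL2 and CXCL5 and a median of 6.66 for the neutrophil markers.

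Among genes that act on the ELR chemokines, none of 9 inducers and NF-kB subunits tested, of 16 listed, was called by limma in CNT against NC over 5 cows. Their median was 0.25 beside 0.07 over all probe sets. With a background of 3.85% called higher, the lack of a call among so few genes is not read as a result. TLR4 (0.62, adjusted p = 0.00285), CD14 (0.71, adjusted p = 0.0422), NFKB1 (0.79, adjusted p = 0.00121) and NFKB2 (0.80, adjusted p = 0.00364) passed the p threshold below the fold needed. The share of all probe sets at that threshold alone is not given here, so nothing is concluded from their number. IL1A, IL1B, TNF and IL17A did not pass the filter on low values and were not tested. TNF measured 5.73 to 6.36 in NC and 6.23 to 6.62 in CNT and was higher in CNT in 5 of 5 cows. Of 7 brakes tested, 2 were called higher (background 3.85%), NFKBIA, which holds NF-kB in the cytoplasm, by 1.29 (SE 0.36, adjusted p = 0.0141) and ZC3H12A, an RNase that degrades cytokine transcripts, by 1.64 (adjusted p = 0.0121). Both were called lower in treated than in CNT glands. Neither of the 2 proteases of the ligand processing list that were tested, ADAM10, known to shed CXCL16, and MMP2, was called.

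GRO1, which lies next to CXCL3 in the chromosome 6 cluster and encodes a CXCL1-type ligand, is no member by the rule and is given as the neighbour of CXCL3. Of its 4 probe sets, 3 were called higher in CNT than in NC over 5 cows (background 3.85%), by 3.46, 3.39 and 2.71. The same 3 were called lower in treated than in CNT glands (background 3.35%), by -2.31, -2.14 and -1.70. The fourth and brightest rose by 0.88 with challenge (SE 0.22, adjusted p = 0.00716), under the fold needed. With treatment it differed by -0.33 (SE 0.19, adjusted p = 0.186). PPBP and PF4, which lie in the same cluster, were not analysed here.

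Correlations between members were taken over the 20 arrays once each cow mean was taken off. CXCL8 correlated with CXCL2 at r = 0.97 and with CXCL5 at 0.92, and CXCL2 with CXCL5 at 0.88. CXCL3 correlated with CXCL2 at 0.65 and with CXCL5 at 0.37, CXCL16 with CXCL8 at 0.53 and with CXCL3 at 0.30, and CXCL12 with CXCL8 at -0.09, with CXCL3 at -0.21 and with CXCL16 at -0.16. These are descriptions over arrays that share cows and groups, so the contrast of CNT with the other glands enters all of them.

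Outside the members, the genes most like CXCL8 among 6559 candidates were BCL2A1 (r = 0.95), an anti-apoptotic gene of the BCL2 family, ETS2 (0.95), a transcription factor, and TRIB1 (0.94), a pseudokinase. The same 3 genes were the most like CXCL2, at 0.93, 0.92 and 0.93. CXCL5 was most like CPOX (0.96), an enzyme of haem synthesis, CASP4 (0.95), an inflammatory caspase, and S100A8 (0.95). CXCL16 was most like MSN (0.91), which links actin to the membrane, CACNB1 (0.91) and SPAG9 (0.91). CXCL12 was most like LUM (0.81), MMP2 (0.79) and OGN (0.79), all genes of the extracellular matrix, and CXCL3 was most like RRAD (0.82), a small GTPase, HRH1 (0.79), a histamine receptor, and RASL11B (0.79). With Spearman correlation 0 of these 3 genes stayed among the 3 most like CXCL8, which became SDS (0.92), ST14 (0.92) and CASP4 (0.91).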

How the data were processed

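Mammary tissue taken after slaughter from 5 cows, 20 glands in all, was hybridised to Affymetrix Bovine Genome Arrays; the labels place the tissue in the cisternal region and the study's methods in the mid parenchyma. The authors deposited log2 values after RMA background correction, normalization and summarization, 1 per probe set and array; RMA draws arrays towards a common distribution, so a change in total RNA per gland is not seen. Whether all arrays were normalized in 1 run is not given in the sources used here. Array values carry no counts, and the number of cows limits the precision. Symbols came from the platform annotation, which gives 13318 probe sets 1 symbol, 86 several and 10724 none, and the gene order from RefSeq (assembly ARS-UCD2.0).

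Probe sets above the array median on at least 2 arrays at 24 h or 3 at 48 h were tested, without 112 controls, in limma 3.58.1 (R 4.3.3, data.table version 1.17.8), with 4 groups per time and no cow term, as the study's methods name none. A fit of 5 cows had cow as a block, and a fit of 8 groups compared times. P-values were adjusted by Benjamini-Hochberg over all probe sets tested. Glands of a number come from 1 animal, so the numbers pair the samples: deviations from the group means correlated at 0.52 (24 h) and 0.45 (48 h) within cows, and at 0.33 and 0.06 for the least alike pair. All probe sets of the 6 genes were named, CXCL16 was led by its brightest, and the 3 genes with the highest Pearson r to each were listed. The members and gene lists were chosen with earlier results of these data known. The scripts were tested on simulated data. Alternatives covered the block, arrays in the fit, filter, variance prior, scaling, probe set choice, exchanged labels and omitted arrays or cows. Figures were drawn with matplotlib 3.10.9.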

Additional observations from a re-analysis of the deposited data

Results flagged for a closer look

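Levels and within-cow differences of the members were screened in 49 groups of 5 cows, and chance alone picks about 1 in 20 such groups. The CXCL8 level of 12.21 in the CFPD-labelled gland of cow 5 lay far above the other 4 CFPD glands, with a gap of 0.753 of the whole range against a critical value of 0.71. The CNT minus NC difference of CXCL8 in cow 2, 2.34, lay far below those of the other cows, with a gap of 0.730 of the range. The same difference of CXCL2 in cow 2, 2.03, had a gap of 0.773 of the range.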

How the results depend on the processing

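The numbers below are members called, of 7. Apart from some fits with the labels of cows 2 and 5 exchanged, the share of all probe sets called under each setting is not given here. A change in these counts is therefore not read as a result about the members. At 24 h, the replicate block, fixed or random, gave 4 for CNT against NC, 4 for CF against CNT and 2 for CFPD against CNT, in place of 1, 1 and 1. A fit of all 20 arrays gave 3 for CNT against NC and 0 for CFPD against CNT, quantile normalization gave 0 and 1 probe set per symbol 2 for CF against CNT. Leaving out 1 array or cow gave 0 to 0 for CNT against NC, 0 to 1 for CF against CNT, CFPD against CNT, CFPD against NC and CFPD against CF, and 0 to 5 for treated against CNT. At 48 h, the replicate block, fixed or random, gave 3 for CFPD against CNT in place of 1. For CF against CNT, all 20 arrays, no filter, the trended and robust prior, quantile normalization and median centring gave 1 each in place of 2. A filter on the mean signal, which CXCL2 and CXCL5 did not pass, gave 1 for CNT against NC, 0 for CF and 0 for CFPD against CNT and 1 for treated against CNT, and 1 probe set per symbol gave 2 for CFPD against CNT. Leaving out 1 array or cow gave 0 to 3 for CNT against NC and treated against CNT, and 0 to 2 for CF and CFPD against CNT. Over 5 cows no minimum fold gave 5 for CNT against NC, and leaving out a cow gave 3 to 4 for CNT against NC and for treated against CNT.

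The planned exchange of CF and CFPD labels in cows 1 and 4 followed another numbering of the cows; the labels in doubt are those of cows 2 and 5, an exchange chosen after seeing the data. Exchange in cows 1 and 4 gave 3 for CF against CNT at 24 h, and with the replicate block 3, 3 and 2 for CNT against NC, CF and CFPD against CNT at 24 h and 2 for CFPD against CNT at 48 h. Exchange in cows 2 and 5 gave 3 for CFPD against CNT at 24 h (2.19% of all probe sets), 1 for CF (1.74%) and 2 for CFPD (1.22%) against CNT at 48 h, and with the block 3, 2 and 3 at 24 h and 3 for CFPD against CNT at 48 h. No called value changed sign under any alternative. The causes were not tested. With 2 cows at 24 h and 3 at 48 h, intervals for single members spanned several log2 units.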
